A study of Mus musculus with 20 samples.

Results

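The data described here are the 10 control libraries of a study of 20 mouse hippocampal RNA-seq libraries, 5 from females and 5 from males, whose dams breathed filtered air during gestation. They were chosen by their labels alone, and the 10 libraries of offspring exposed before birth to nano-sized particulate matter were not used here. All 10 controls were C57BL/6 offspring (C57BL/6J in the methods), each library coming from the right hippocampus of 1 saline-perfused young adult, and the litter of each library was not given. Females were 17.71 to 18.29 weeks old (median 18) and males 18.57 to 19.14 weeks old (median 19.14), so the ages did not overlap. The methods state that the mice had earlier passed through a swim test and a glucose test and that EdU was injected, in one place for males and in another for all animals. Sex, age at collection and any such difference in handling cannot be told apart in these libraries.

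The hippocampus is a folded sheet of excitatory neurons, the granule cells of the dentate gyrus and the pyramidal cells of CA3, CA2 and CA1, set among interneurons, astrocytes, oligodendrocytes, microglia and vessels. It borders on the neocortex, the thalamus and the lateral ventricle, where the choroid plexus, a fringe of epithelium that makes cerebrospinal fluid, lies against it. Total RNA depleted of ribosomal RNA holds, beside messenger RNA, ribosomal RNA that the depletion left, nuclear RNAs such as Malat1, and short structured RNAs that work in splicing (U1, U2), protein targeting (7SL) and RNA cleavage (RNase P and RNase MRP). Many abundant genes also have pseudogenes, copies of their sequence elsewhere in the genome, and a short read from such a copy may match its parent equally well.

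The libraries held 22307445 to 38663408 counts assigned to genes, with a median of 29685090 in females and 28290787 in males. Of 48709 genes in the gene map, 21295 were counted in all 10 controls, 11437 in some of them and 15977 in none. Between 25363 and 27072 genes were counted per library, and 753 to 872 genes held 50% of its counts. The sex labels matched the libraries, since Xist, the RNA that coats the silenced X chromosome, was at 573 to 1174 CPM in females and at most 0.907 in males, while the summed Y-linked genes were at most 0.114 CPM in females and 253 to 332 in males. The log2 profiles of libraries correlated at 0.984 to 0.992 among females and 0.974 to 0.993 among males over 18710 genes, the lowest value being that of males 1 and 4, and no pair of libraries lay within counting noise. Markers of dentate granule cells (249.6 to 517 summed CPM over 10 genes), CA1 (418 to 554, 7 genes), CA2 (161 to 214, 7 genes) and CA3 (218 to 338, 6 genes) were present in every library. Throughout, CPM means counts per 1000000 counts of a library's total after scaling by TMM, the trimmed mean of M values.

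The sequences below carry one of the main patterns of the controls, in which the split of counts between a gene and its near-identical copies differed from library to library. Gapdh, a glycolytic enzyme used as a reference gene in many assays (mm10, chr6:125161715-125166467, minus strand), has 3 processed pseudogenes that matched its 1002-base coding frame almost base for base in the Gencode transcripts. Gm7336 (chr7:51746647-51747878, plus strand) held 0 differences over that frame, Gm5559 (chr5:95861714-95862715, plus strand) held T385A and Gm2606 (chr15:12574889-12575890, plus strand) held C583T, with positions counted from 1 at the 5′ end of the coding frame and the base of Gapdh written first. The windows of positions 371 to 400 and 569 to 598 are shown 5′ to 3′, with the differing base in capitals.
Gapdh, 371 to 400: ccgatgcccccatgtttgtgatgggtgtga
Gm5559, 371 to 400: ccgatgcccccatgAttgtgatgggtgtga
Gapdh, 569 to 598: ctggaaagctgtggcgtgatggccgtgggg
Gm2606, 569 to 598: ctggaaagctgtggTgtgatggccgtgggg

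7SL, the RNA of the signal recognition particle, has 2 annotated genes of the same 300-base sequence, Rn7s1 and Rn7s2. U1, the small nuclear RNA that pairs with the start of introns, has several 164-base genes. Gm22513 (chr12:54696782-54696945, plus strand) was the most abundant snRNA gene, Gm22317 (chr12:54738459-54738622, minus strand) stands for 4 genes of identical sequence, and Gm23238 (chr19:18732741-18732904, plus strand) was among the most variable genes. U2, which pairs with the branch point of introns, has 2 identical 191-base genes, Gm23971 (chr11:101645740-101645930, minus strand) and Rnu2-10. Capitals mark bases that differ from Gm22513, counted from 1 at the 5′ end: C60T in Gm22317, and G12A, A23T, C60T, C153T and C160A in Gm23238.
Gm22513, U1: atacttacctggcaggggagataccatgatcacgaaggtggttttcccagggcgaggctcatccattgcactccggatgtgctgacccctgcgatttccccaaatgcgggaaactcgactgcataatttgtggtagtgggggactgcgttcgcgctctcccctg
Gm22317, U1: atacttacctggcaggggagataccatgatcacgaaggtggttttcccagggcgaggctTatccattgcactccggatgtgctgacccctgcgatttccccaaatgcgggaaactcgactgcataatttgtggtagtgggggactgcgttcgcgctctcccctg
Gm23238, U1: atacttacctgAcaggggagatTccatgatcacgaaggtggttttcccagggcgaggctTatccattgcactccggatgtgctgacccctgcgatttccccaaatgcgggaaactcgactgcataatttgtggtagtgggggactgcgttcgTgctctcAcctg
Gm23971 and Rnu2-10, U2: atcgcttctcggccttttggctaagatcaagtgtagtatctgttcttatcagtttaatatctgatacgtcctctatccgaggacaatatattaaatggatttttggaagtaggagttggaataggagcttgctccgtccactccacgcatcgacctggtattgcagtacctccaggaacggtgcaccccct

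Protein-coding genes, those of the mitochondrial chromosome included, held 83.7% ± 1.49 (SD, n = 5) in females and 83.6% ± 0.676 (SD, n = 5) in males of the counts, and Mt_rRNA, the 2 ribosomal RNAs of mitochondria, held most of the rest. The summed share of the mitochondrial ribosomal RNAs was lower in females, a difference that lay in mt-Rnr2, the more abundant of the 2, alone. The shares of long intergenic non-coding RNA (lincRNA) and of TEC were higher in females. TEC is the class in which Gencode keeps transcripts not yet tested by experiment. Coding genes held 84.5, 84.2, 82.8, 85.4 and 81.7% of the counts in females 1 to 5 and 84.1, 83.8, 84.1, 83.4 and 82.5% in males 1 to 5, and these ranges overlapped (two-sided exact permutation test of 5 against 5 libraries, p = 0.865). As a share of the counts outside the mitochondrial chromosome, the coding share differed by −1.59 percentage points (females minus males, adjusted exact permutation p = 0.0429), so this result depended on the total used. With 11 shares tested, the smallest p that 5 against 5 allows is 0.00794, which becomes 0.0218 after Benjamini-Hochberg adjustment where 4 shares reach it.

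Mt_rRNA held 9.92, 9.65, 10.7, 9.16 and 11.4% of the counts in females and 11.9, 11.9, 11.5, 11.9 and 11.7% in males, or 10.2% ± 0.904 (SD, n = 5) in females and 11.8% ± 0.192 (SD, n = 5) in males. Every male lay above every female, the nearest pair being female 5 and male 3 (exact permutation p = 0.00794, adjusted p = 0.0218). The whole mitochondrial chromosome held 11.8, 11.6, 12.9, 11.1 and 13.3% in females and 14.3, 13.99, 13.5, 14.1 and 13.8% in males, again without overlap (exact permutation p = 0.00794, adjusted p = 0.0218). The RiboZero Gold kit is designed to remove mitochondrial as well as cytoplasmic ribosomal RNA, so these are the counts it left, and the efficiency of removal in each library was not tested. The female libraries differed more among themselves, with an SD of 0.904 percentage points for Mt_rRNA against 0.192 in males, and females 3 and 5 came closest to the males.

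LincRNA held 2.47, 2.69, 3.38, 2.49 and 3.55% of the counts in females and 1.56, 1.74, 1.95, 1.43 and 1.86% in males, a mean of 2.91% against 1.71% (exact permutation p = 0.00794, adjusted p = 0.0218). Every female lay above every male, and females 3 and 5 were again apart from the other females. TEC genes held 0.521, 0.563, 0.846, 0.483 and 0.687% in females and 0.383, 0.355, 0.346, 0.254 and 0.401% in males, which is 1.78 times as much in females (exact permutation p = 0.00794, adjusted p = 0.0218). Female 3 had the largest TEC share and male 4 the smallest.

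Small nuclear RNA (snRNA) held 0.378, 0.265, 0.28998, 0.336 and 0.369% in females and 0.114, 0.221, 0.2401, 0.219 and 0.291% in males (exact permutation p = 0.0238, adjusted p = 0.0437). Male 1 had the lowest share, and male 5 lay within the female range. Antisense transcripts (0.172% in females, 0.143% in males, adjusted p = 0.0499) and processed pseudogenes (0.275% in females, 0.298% in males, adjusted p = 0.0349) also passed the exact permutation test, with smaller differences. The calls of snRNA, antisense transcripts and processed pseudogenes were lost in 9, 9 and 8 of the 10 cases in which a library was left out. Ribozymes, the RNA subunits of RNase P and RNase MRP, held 0.313% and 0.4601% (adjusted exact permutation p = 0.0679), and processed transcripts held 0.356% and 0.306% (adjusted exact permutation p = 0.0546), so neither passed. The class misc_RNA, which is mostly 7SL, ran from 0.448% to 1.13% in females and from 0.376% to 1.48% in males, the widest spread relative to its mean among these classes. The 34 smaller classes together held 0.297% to 0.457% of a library.

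**Figure D1:**
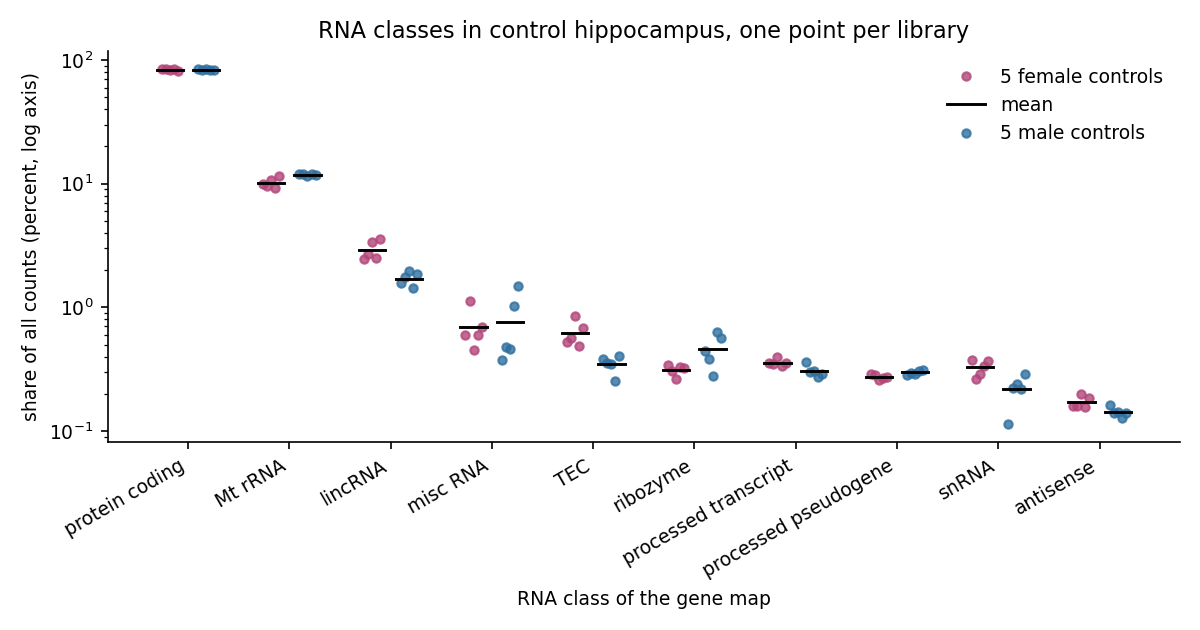
Share of all counts held by each RNA class of the gene map (percent, log axis), 1 point per control library, females in pink and males in blue, with a black bar at the mean of the 5. LincRNA (2.47% to 3.55% in females, 1.43% to 1.95% in males) and TEC lay higher in every female than in any male and Mt_rRNA lower, while coding shares overlapped.

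Most classes rested on very few genes. The 16S ribosomal RNA of mitochondria, mt-Rnr2, held 86.2% of the Mt_rRNA counts, and Malat1, a long RNA retained in nuclear speckles, held 70.9% of the lincRNA counts. Rpph1, the RNA of RNase P, held 68.0% of the ribozyme counts, Rn7s2 held 44.6% of misc_RNA and the U1 gene Gm22513 held 41.0% of snRNA. Rian, an imprinted host RNA of small RNAs, held 21.4% of the processed transcripts, and Kcnq1ot1, an imprinted antisense RNA, held 18.3% of the antisense class. Counts were spread more widely in the other classes: the leading genes Gm45884 of TEC, Gm10123 of processed pseudogenes and mt-Co1 of coding genes held 5.32%, 3.40% and 1.32% of their class.

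The 20 genes with the most counts held 15.8% to 18.7% of a library (median 17.7%), and 5 of them lie on the mitochondrial chromosome. The first of them, mt-Rnr2, held 8.58, 8.36, 8.84, 8.05 and 9.47% of the counts in females and 10.7, 10.3, 9.95, 10.3 and 10.1% in males, so that the female and male ranges did not overlap. Malat1 held 1.74, 1.91, 2.41, 1.84 and 2.61% in females and 0.986, 1.26, 1.42, 0.973 and 1.35% in males. Its order was the reverse of that of mt-Rnr2 between the sexes, with every female above every male. Then followed mt-Rnr1, the 12S ribosomal RNA (1.51% as a mean of 10), and mt-Co1, a subunit of cytochrome oxidase (1.101%). Slc1a2, the glutamate transporter of astrocytes (0.437%), came next and was the first nuclear messenger RNA. Unlike mt-Rnr2, mt-Rnr1 was not lower in females, with means of 1.52% in females and 1.51% in males. Its ranges overlapped, at 1.11 to 1.97% in females and 1.20 to 1.65% in males.

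Other nuclear coding genes among the 20 were the cytoskeletal genes Map2 (0.226%), Map1b (0.217%) and Sptan1 (0.168%), the motor protein Kif5a (0.159%), the translation factor Eef1a1 (0.173%), the peptide-processing enzyme Cpe (0.171%), the membrane protein Gpm6a (0.164%), and the calcium-dependent kinase and phosphatase subunits Camk2a (0.169%) and Ppp3ca (0.168%). Camk2a held 0.171, 0.182, 0.2198, 0.201 and 0.269% of the counts in females and 0.0869, 0.141, 0.142, 0.115 and 0.161% in males. It was highest in female 5 and lowest in male 1, which stood below the other 4 males, and no male reached the lowest female. Gpm6a went the other way, at 0.144, 0.131, 0.132, 0.154 and 0.115% in females and 0.213, 0.181, 0.203, 0.182 and 0.1796% in males, with every male above every female. Also among the 20 were mt-Cytb, mt-Nd1, Rn7s1, Rn7s2 and Rpph1.

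Counts rise with gene length, so levels of different genes were compared as TPM, counts per base scaled to the same total in every library, from the counts and the deposited gene lengths, among genes of at least 200 bases. On this scale mt-Rnr2 (166644 TPM as a mean of 10) and mt-Rnr1 (44176 TPM) stayed first, and short structured RNAs moved up: Rn7s2 stood at 30940 TPM, Rn7s1 at 26639 TPM, Rpph1 at 22842 TPM and Rmrp, the RNA of RNase MRP, at 12307 TPM. Among messenger RNAs, mt-Co1 (19910 TPM) led, followed by mt-Cytb (7345 TPM) and mt-Nd1 (6325 TPM), while Malat1 stood at 6648 TPM. The first nuclear messenger RNA per length was Ttr, the thyroid hormone carrier of the choroid plexus, with a mean of 3153 TPM that rested on 3 libraries. It ran from 33.8 to 1038 TPM in females and from 24.2 to 13446 TPM in males. Calm2, a calmodulin gene, stood at 2433 TPM, and Gm25395, a scaRNA that guides the modification of snRNAs, stood at 2869 TPM.

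How much a gene varied between animals was measured as the SD of log2(CPM + 0.5) over the 5 libraries of a sex, among genes with a mean of at least 50 counts there. The median SD was 0.158 over 14720 genes in females and 0.171 over 14524 genes in males. The tail was much longer in males, in which 186 genes had an SD over 1 against 56 in females. Over the 14129 genes measured in both sexes, 55.4% had the larger SD in males, and the SDs of the sexes correlated at Pearson's r = 0.588 and Spearman's rho = 0.482, a description over genes of the same libraries. The 100 genes with the largest SD in each sex are described below without a test, since the SD chose them. The last gene inside and the first outside had SDs of 0.853 and 0.852 in females and of 1.35 and 1.34 in males. The lists shared 18 genes, among them Ttr, Tmem72, F5, Folr1, Kcnj13, Prlr and Slc4a5 of the choroid plexus, mt-Atp6, mt-Atp8, mt-Co3, mt-Nd3 and mt-Nd4l of mitochondria, the pseudogenes Gm2606, Gm5559, Gm7336 and Gm8226, and the U1 gene Gm25679.

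**Figure D2:**
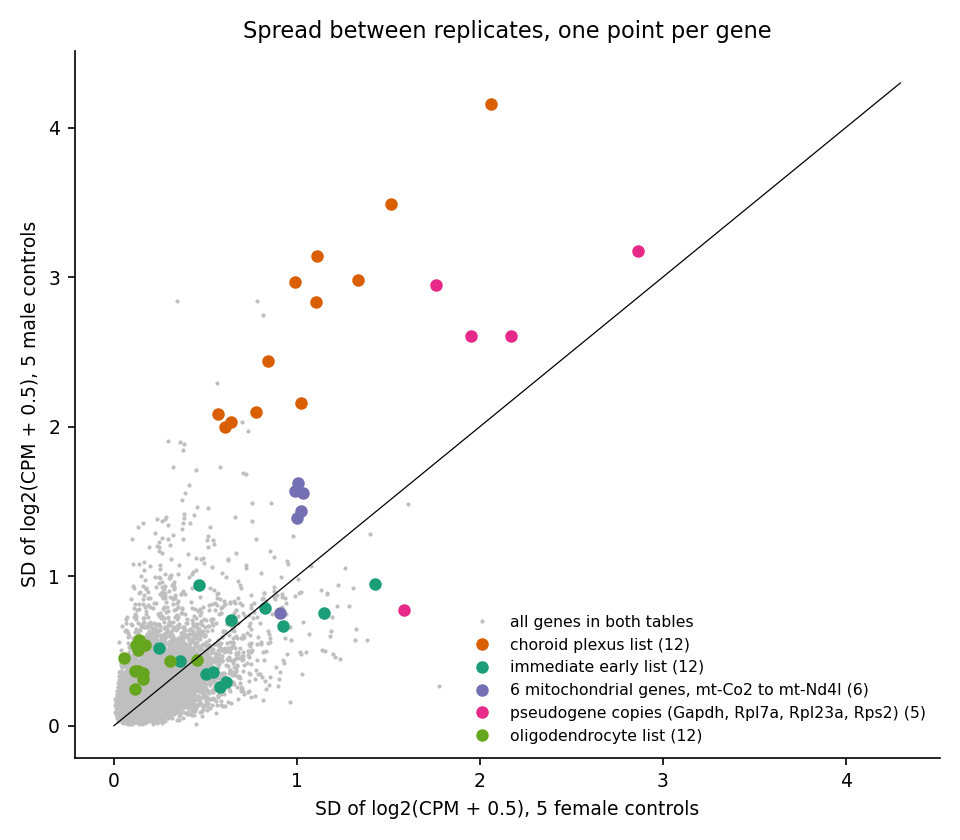
SD of log2(CPM + 0.5) between the 5 female controls (x axis) and between the 5 male controls (y axis), 1 grey point per gene measured in both, the line marking equal SDs. Choroid plexus genes (orange) lay far above the line, pseudogene copies (pink) and the 6 mitochondrial genes (purple) varied in both sexes, and oligodendrocyte genes (olive) varied more in males.

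In males, 71 of the 100 most variable genes shared one order, with males 2, 4 and 5 all above males 1 and 3, and 68 of these were coding. All 16 genes of the choroid plexus list were among them, which together stood at 315, 8128, 267, 12469 and 4892 summed CPM in males 1 to 5, a 46.8-fold range. Ttr alone stood at 56.5, 4486, 10.8, 6536 and 2651 CPM in males, with an SD of 4.16, the largest of any gene. The order also held for Folr1, a folate receptor, at 0.375, 34.998, 0.296, 54.1 and 19.1 CPM, and for Kcnj13, a potassium channel of that epithelium, at 1.8004, 38.1, 0.111, 57.1 and 20.9 CPM. In each of these genes the lowest of males 2, 4 and 5 was well above the higher of males 1 and 3.

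The lowest levels were not zero, since Ttr was counted 1506 times in male 1 and 291 times in male 3. In females the same 16 genes stood at 287, 699, 318, 1011 and 913 summed CPM, a 3.53-fold range, and 7 of the 16 were among the 100 most variable genes. Ttr stood at 13.97, 231, 45.4, 429 and 278 CPM in females, highest in female 4 and lowest in female 1. On the summed level, male 1 lay within the female range, male 3 just below it, and males 2, 4 and 5 above all females.

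Genes outside the list shared the male order. Mfrp, a membrane protein of epithelia, stood at 0.375, 37.8, 0.0369, 44.9 and 16.7 CPM in males 1 to 5 and 0.161, 1.86, 0.524, 3.33 and 2.04 CPM in females, and Cldn2, a tight junction protein of leaky epithelia, at 0.6001, 32.1, 0.0739, 39.4 and 13.6 CPM in males. Igf2, a growth factor made by the choroid plexus and the meninges, the keratins Krt8 and Krt18, the sulfate transporter Slc13a4, the collagen Col8a2 and the ion channel Trpv4 were others. The 12 genes of the meninges list stood at 260.2, 282, 48.96, 372 and 172 summed CPM in males and 164, 87.9, 54.9, 70.1 and 92.5 in females. Male 1, low in choroid plexus genes, was high here, so the meningeal list did not share their order in full. The 8 genes of the ependyma list, the ciliated lining of the ventricle, stood at 21.6, 78.1, 21.3, 64.3 and 42.8 in males and were again highest in males 2 and 4. In a bulk sample, more cells of a type and more RNA per cell cannot be told apart, and how much neighbouring tissue each sample held was not tested.

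Between the sexes, limma-voom called 5207 of 18710 genes at adjusted p under 0.05, which is 27.8% of those tested, and it called none of the 16 choroid plexus genes, none of which had an unadjusted p under 0.05 either. The edgeR quasi-likelihood test called 11 and DESeq2 called 15 of the same 16 genes, all lower in females (15 at an unadjusted p under 0.05 with either tool). The call for these genes therefore depended on the tool. Their median log2 difference was -1.94 (females minus males) in the limma fit, and for Ttr the value was -2.28 (adjusted p = 0.331). Male 3 fell below all females for Ttr while males 2, 4 and 5 lay above all of them, so the groups overlapped.

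**Figure D3:**
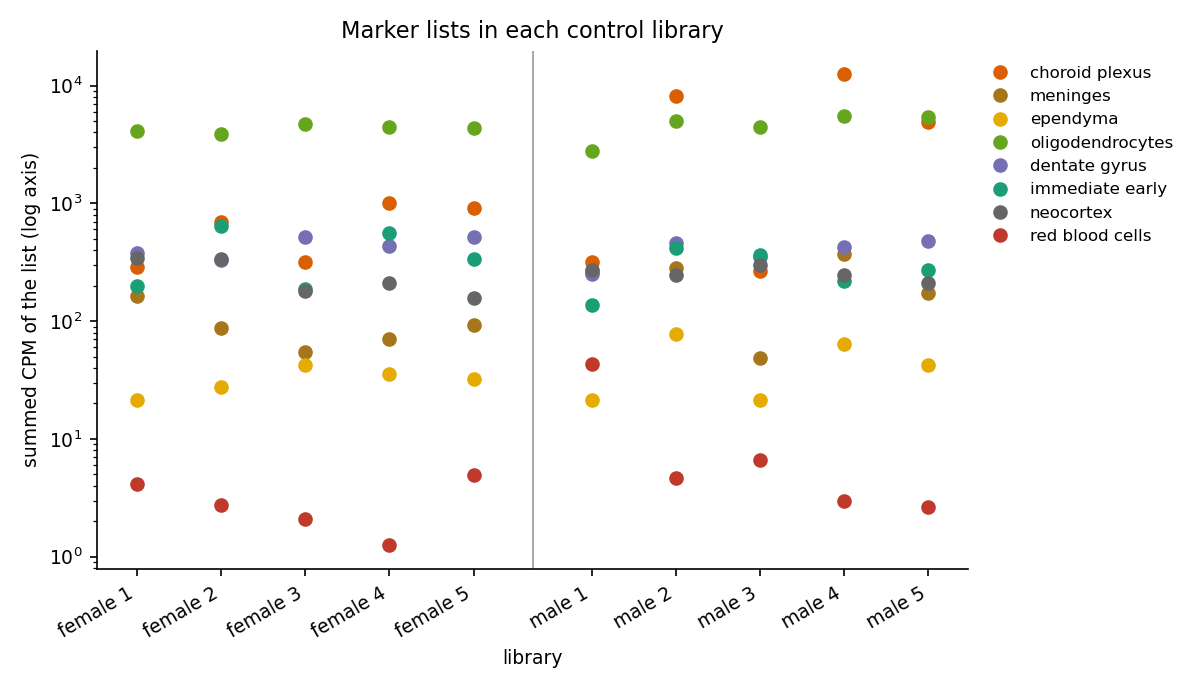
Summed CPM of 8 marker lists (log axis) in each control library, females left and males right of the line. Choroid plexus genes (orange) ran from 267 to 12469 CPM and were highest in males 2, 4 and 5, immediate early genes (teal) were highest in females 2 and 4, and male 1 had the fewest oligodendrocyte and the most red blood cell counts.

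Male 1 differed from the other males in several further groups. It was more than 2 times above every other male in 17 of the 100 most variable genes, of which 7 were coding. Gabra6, a receptor subunit of cerebellar granule cells, stood at 14.7, 0.354, 0.185, 0.156 and 0.0551 CPM in males 1 to 5 and at most 0.777 CPM in females. Fat2, a cadherin of the same cells, stood at 24.1, 1.805, 0.369, 1.06 and 0.9096 CPM, and Cbln3, a synaptic organiser of the cerebellum, at 11.9, 1.31, 0.259, 0.5704 and 0.992 CPM. Car8, an abundant gene of Purkinje cells, stood at 38.2, 6.02, 4.397, 5.39 and 5.18 CPM in males and 5.74, 3.42, 2.84, 6.103 and 2.61 in females. These 4 genes are known for high levels in the cerebellum and they were low in the other 9 libraries. They were chosen after their values were seen, and other genes known from the cerebellum set male 1 apart less. Pcp2 stood at 2.18 CPM in male 1 and at most 0.416 elsewhere, Cbln1 at 12.9 and at most 5.96, En2 at 1.28 and at most 0.753, and Neurod1, also a gene of dentate granule cells, at 25.4 and at most 19.9. Mab21l1 stood at 5.51 CPM in male 1 and 4.61 in female 1.

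Red blood cell genes (5, haemoglobins among them) stood at 43.2, 4.67, 6.58, 2.98 and 2.65 summed CPM in males and 1.25 to 4.92 in females, with male 1 again highest. Oligodendrocyte genes (12, myelin proteins among them) stood at 2774, 5039, 4465, 5466 and 5431 summed CPM in males, and male 1 was the lowest of all 10 libraries. Their median SD was 0.437 in males and 0.133 in females. Dentate granule cell genes were also lowest in male 1 (249.6 summed CPM, 348 to 477 in the other males and 328 to 517 in females). Interneuron genes, at 979, 837, 875, 886 and 858 in males, did not set male 1 apart to that degree.

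Male 1 also held counts on genes that lie opposite abundant genes. Among 17 genes with at least 50% of their span over one of the 200 most abundant genes on the other strand, male 1 was the highest of 10 libraries for 9 and more than 10 times above the next library for 5. Gm20417, opposite Malat1, had 4654, 30, 54, 36 and 28 counts in males 1 to 5 and 21, 22, 20, 75 and 18 in females. Gm20721, opposite Gnas, Gm37376, opposite Malat1, and Gm13872, opposite Slc1a2, showed the same single high library, with 1041, 6008 and 129 counts in male 1. Whether the counting used strand was not given in the sources used here, and reads of such a pair cannot be told apart without it. The mitochondrial serine transfer RNA mt-Ts1, which lies between mt-Co1 and mt-Co2, had 1802, 7, 6, 14 and 9 counts in males.

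In females the most variable genes did not share one order. Among the 100, females 1 and 2 both lay above the other 3 in 30 genes, females 2, 4 and 5 all lay above females 1 and 3 in 14, and female 3 was more than 2 times above every other female in 10. Igfn1, a protein with immunoglobulin-like domains known from muscle, stood at 7.42, 7.97, 0.494, 1.41 and 1.37 CPM in females 1 to 5 and 2.18, 5.56, 6.58, 5.94 and 3.89 in males. Among females it was high in females 1 and 2 alone. The neocortex list, 11 genes of cortical layers, went the same way at 343, 339.6, 180.5, 211 and 157 summed CPM in females and 274, 246, 301, 246 and 213 in males. Bnc2, a zinc finger protein, was high in female 1 (7.096, 0.873, 0.802, 0.749 and 0.62002 CPM in females), and Fmod, a matrix protein of the meninges, likewise (12.7, 4.78, 1.33, 1.75 and 2.17 CPM).

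Zic1, a transcription factor of the septum and the meninges, stood at 20.5, 45.9, 113, 43.8 and 36.9 CPM in females and 26.9, 87.9, 17.99, 116 and 36.6 in males, highest in female 3, male 2 and male 4. Dlk1, an imprinted membrane protein, was also highest in female 3, at 0.581, 1.25, 8.92, 0.527 and 1.15 CPM in the 5 females. No female was extreme for most of the female list, since females 1 to 5 lay farthest from the median of the 5 in 25, 28, 18, 14 and 15 of the 100 genes. By the same measure male 3 was extreme in 65 and male 1 in 27 of the male list. In 71 of the male list, males 2, 4 and 5 all lay above males 1 and 3. There the median fell among males 2, 4 and 5, so male 3 did not stand apart from male 1 by this measure.

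Immediate early genes, which neurons switch on within minutes of activity, varied in both sexes, with a median SD of 0.597 in females and 0.593 in males, above the medians of all genes measured. Of the 12, 3 were in the female list of 100 and none in the male list, whose lowest SD was higher (1.35 against 0.853), and Egr2, at an SD of 0.951 in males, would have passed the female limit. The 12 genes stood at 198, 647, 186, 564 and 338 summed CPM in females and 137, 419, 365, 219.7 and 273 in males. Arc, a synaptic protein made after activity, stood at 54.8, 290.5, 53.7, 247 and 135 CPM in females and 38.7, 163, 104, 74.1 and 88.1 in males. Egr2 stood at 0.871, 10.8, 1.39, 10.8 and 5.05 CPM and Fos at 6.74, 23.9, 6.14, 24.7 and 10.5 CPM in females, both transcription factors of the same response. Females 2 and 4 were highest for all 3 genes, followed by female 5, and females 1 and 3 were low. None of the 12 was called between the sexes by limma-voom, edgeR or DESeq2 (0, 0 and 1 at an unadjusted p under 0.05), beside 27.8% of all genes.

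Pseudogenes and snRNA genes held more of the variable lists than of the genes measured. Processed pseudogenes were 14 of the 100 most variable genes in females and 2.00% of the genes measured there, and snRNAs were 7 of 100 and 0.211%. In males the numbers were 6 and 3 of 100, against 2.20% and 0.207%. Coding genes were 65 of 100 in females and 81 in males. At the other end, the 5 most even genes in females were Ttc37, Unc80, Kif1b, Ddx39b and Capn7, of which Kif1b, a motor protein of axons, stood between 1409 and 1425 CPM in the 5 libraries. In males they were Tef, Anapc16, Ip6k2, Tomm34 and Gnas, of which Gnas, the stimulatory G protein subunit, stood between 610.0 and 626 CPM. The SDs of these 10 genes ran from 0.00774 to 0.0141. They are the smallest of 14720 SDs in females and of 14524 in males, each taken over 5 libraries. They were not compared with counting error, so they do not show that these genes are more stable than others.

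The Gapdh family illustrates the pseudogenes, whose windows are shown above. Gapdh itself had 4404, 2496, 3773, 5604 and 1885 counts in females and 2397, 4567, 4907, 6428 and 3852 in males, or 83.5 to 155 CPM in females and 89.9 to 181 CPM in males. Gm5559 had 2852, 934, 1046, 163 and 82 counts in females and 110, 3243, 94, 2397 and 6404 in males. Scaled for depth, it was lowest in male 3 (3.47 CPM) and female 5 (3.63 CPM) and highest in male 5 (177 CPM), and its SD was 1.95 in females and 2.61 in males, against 0.377 and 0.447 for Gapdh. Gm7336, whose coding frame is that of Gapdh base for base, had 497, 134, 116, 3778 and 41 counts in females and 131, 129, 5078, 4271 and 193 in males. High values came from female 4, male 3 and male 4, which are not the libraries high in Gm5559 except for male 4. Gm2606 had 32, 6, 127, 8 and 259 counts in females and 2153, 4, 13, 14 and 18 in males, nearly all from male 1 and female 5.

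Of all words of 31 bases in the annotated transcripts of these copies, 96.8% to 97.3% also occur in those of Gapdh, so most reads from one could have come from another. The 4 genes together stood at 251, 135, 156, 265 and 100.4 CPM in females and 179.7, 281, 373, 339.9 and 289 CPM in males, with an SD of 0.595 and 0.405. Gapdh held 36.8% to 83.1% of the family's counts, depending on the library. The SD of the summed family was smaller than that of any copy alone in both sexes, and larger than that of Gapdh alone in females. Which of these genes the reads came from cannot be told apart from the counts.

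Other parents also had copies with uneven counts. Gm8226, a pseudogene of the ribosomal protein gene Rpl7a (91.9% of its words occur in Rpl7a), had 749, 3, 5, 726 and 1 counts in females and 927, 954, 4, 2 and 7 in males. Each library held either fewer than 10 or more than 700 of its counts, while the parent had 1510, 1338, 1327, 1919 and 1019 counts in females and 1506, 1671, 1610, 2769 and 2196 in males. The SD was 2.87 for Gm8226, 0.148 for Rpl7a and 0.386 for the sum with Rpl7a in females, and 3.17, 0.132 and 0.306 in males, so the sum was less even than the parent alone. Gm10132, a copy of Rpl23a (92.9% of words), had 297, 14, 172, 324 and 10 counts in females, and Gm6311, a copy of Rps2 (70.9% of words), had 30, 33, 499, 21 and 20, nearly all of its variation coming from female 3. Rpl23a and Rps2 are proteins of the large and the small ribosomal subunit, and their own SDs in females were 0.0783 and 0.257.

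The identical 7SL genes split their counts unevenly. Rn7s1 held 55.9, 32.9, 32.9, 59.9 and 39.1% of the 7SL counts in females and 59.9, 55.6, 58.5, 45.4 and 45.5% in males, and Rn7s2 the rest, although no read within these 300 bases could tell them apart. Their sum stood at 4846, 10182, 3806, 5041 and 5866 CPM in females and 3491, 4005, 3795, 8913 and 13405 CPM in males, highest in male 5, female 2 and male 4. Summing did not remove this spread, with an SD of 0.530 in females and 0.872 in males. Of 100 small RNA genes compared, 16 fell into 5 families of identical sequence, and 4 of these genes were in the female list and 2 in the male list of 100.

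Among the U1 genes printed above, the 4 with the sequence of Gm22317 stood at 763, 503, 721, 954 and 607 summed CPM in females and 315, 681, 662, 549 and 720.3 in males, with an SD of 0.349 and 0.489. One of them, Gm25679, had 499, 218, 277, 20 and 318 counts in females and 5, 35, 27, 64 and 394 in males, with an SD of 1.61 and 1.49. The sum was therefore more even than this copy. Gm22317 held most of that family's counts, with 89.8% to 98.7% in a library. For U2, Rnu2-10 had 66, 57, 320, 26 and 690 counts in males against 2932, 4565, 6197, 8504 and 11922 for its identical copy Gm23971. Gm23472, another 191-base snRNA gene, stood at 69.3, 6.15, 73.8, 138 and 120.2 CPM in females and 65.04, 67.1, 96.7, 88.7 and 66.9 in males. It was low in female 2 alone, and the sum with its identical copy Gm23444 kept an SD of 1.65 in females.

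6 neighbouring mitochondrial genes varied together, from mt-Co2 to mt-Nd4l, at positions 7013 to 10173 of the mitochondrial chromosome. They are mt-Co2 and mt-Co3, subunits of cytochrome oxidase, mt-Atp8 and mt-Atp6 of ATP synthase, and mt-Nd3 and mt-Nd4l of complex I. Their sum stood at 1065, 3121, 1850.0, 722 and 609 CPM in females and 593, 992, 257, 1892 and 1459 CPM in males, with an SD of 0.976 and 1.14. The other 7 messenger genes of the same chromosome summed to 16816, 16554, 19565, 18124 and 17828 CPM in females and 24039, 19841, 21224, 20499 and 19242 CPM in males, with an SD of 0.0960 and 0.124. The 6 genes therefore varied widely beside the nearly flat sum of the other 7, of which mt-Co1 was the largest part. Singly the 7 were less even, with SDs of up to 0.586 in females (mt-Nd5, and 0.397 for mt-Nd4) and 0.258 in males (mt-Nd6). Each of the 6 had a larger SD, the lowest being that of mt-Co2 (0.910 in females and 0.752 in males).

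mt-Co3 had 16737, 40399, 29420, 12865 and 6304 counts in females and 5162, 13330, 2260, 33655 and 23749 in males. Female 2 and male 4 were highest and female 5 and male 3 lowest, and for mt-Atp8, mt-Atp6 and mt-Co2 the same 4 libraries were the extremes of their sex. In males the sum of the block split as that of the choroid plexus genes did, with males 2, 4 and 5 above males 1 and 3. The full order differed, since male 5 lay above male 2 for the block and below it for the choroid plexus genes. For mt-Co2, male 1 (292 CPM) also lay above male 2 (249 CPM). In females the block did not split like the choroid plexus genes. Female 3 came next after female 2 for the block, while only female 1 was lower than female 3 for choroid plexus genes. For 5 of the 6 genes, 98.1% to 99.9% of their 31-base words also occur in annotated pseudogenes on chromosome 1 (chr1:24611535-24616197), a copy of this stretch in the nuclear genome. The value was 7.47% for mt-Atp8, 0 for mt-Nd1, mt-Nd2, mt-Nd5, mt-Nd6 and mt-Cytb, 29.6% for mt-Co1 and 62.8% for mt-Nd4. Only the 7 annotated pseudogenes were searched, and the bases between Gm10925 (ending at 24614651) and Gm28661 (starting at 24614885) belong to none of them. Whether that gap holds a copy of mt-Atp8 was not tested.

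The 7 chromosome 1 pseudogenes, from Gm28439 to Gm29216, summed to 178, 306, 119, 154 and 349 CPM in females and 140.1, 162, 164, 298 and 345 CPM in males. Adding them to the 6 mitochondrial genes left an SD of 0.816 in females and 0.969 in males. The sum over both genomes was thus not even either, and reads that the counting left unassigned are not in the counts.

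**Figure D4:**
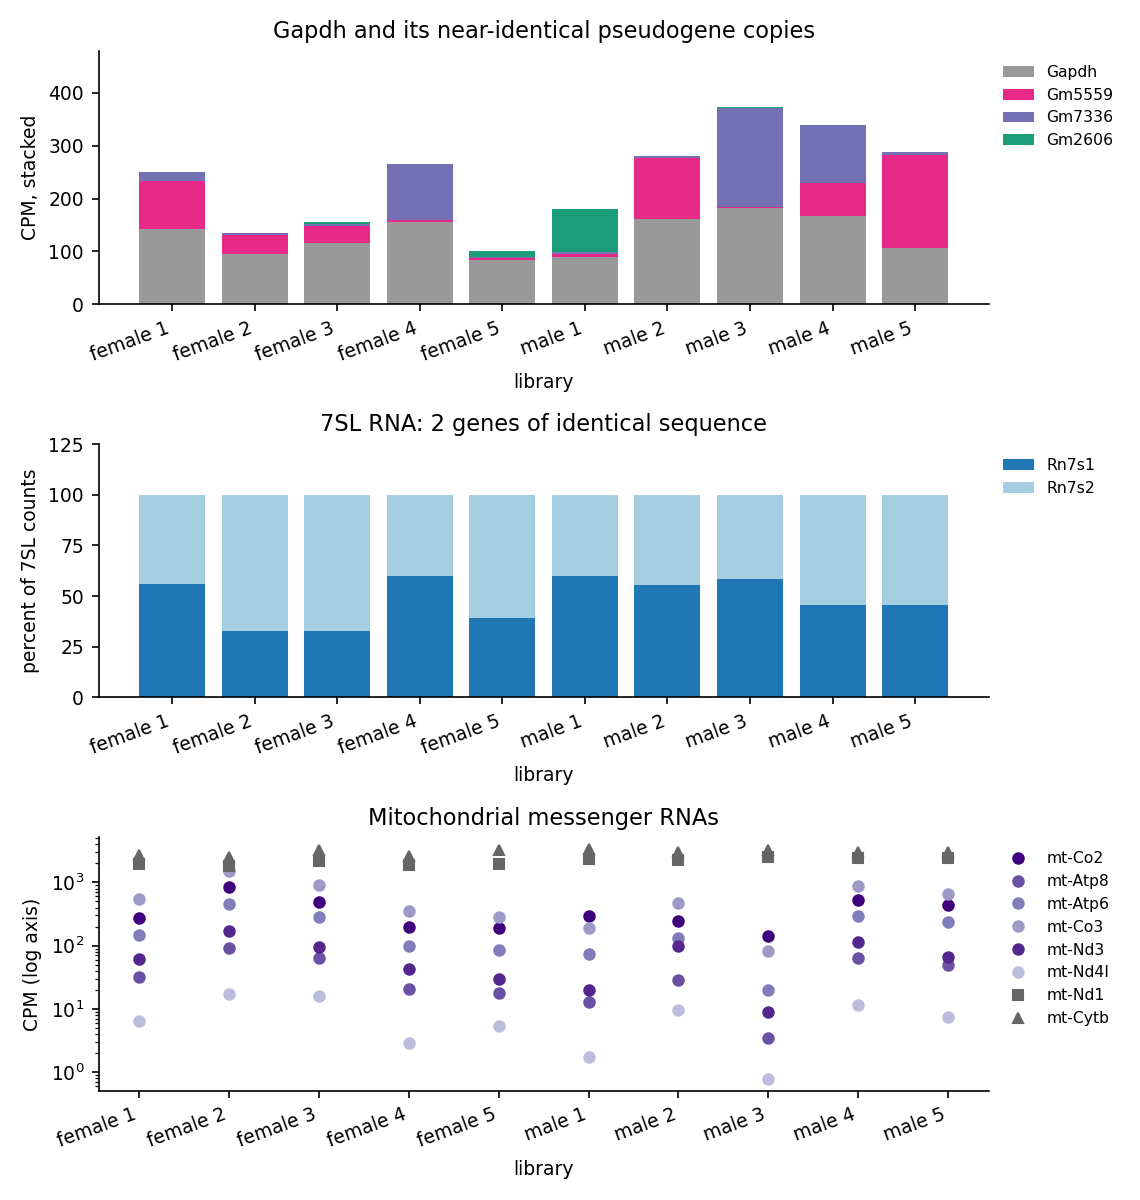
Genes with near-identical copies in the 10 control libraries: CPM of Gapdh and 3 pseudogenes (stacked bars, top), percent of 7SL counts on Rn7s1 and Rn7s2 (stacked bars, middle), and CPM of mitochondrial messenger RNAs (points, log axis, bottom). The pseudogene part and the 7SL split changed from library to library, and the 6 genes mt-Co2 to mt-Nd4l varied while mt-Nd1 and mt-Cytb stayed nearly level.

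Female and male controls were then compared gene by gene with limma-voom. Of the 5207 differentially expressed genes (DEGs), 2993 were higher in females (16.0% of 18710 tested) and 2214 lower (11.8%), and 7603 genes (40.6%) had an unadjusted p under 0.05. Their median log2 difference in size was 0.48, and 1211 exceeded 1. The numbers leaned on single libraries: without female 5, 3304 genes were called, and the 2214 genes lower in females became 1054 without female 5, 1279 without female 3 and 1368 without male 4. With age in weeks as a covariate, 7 genes were called, namely Xist and the Y-linked Ddx3y, Eif2s3y, Gm18665, Gm29650, Kdm5d and Uty, and 572 had an unadjusted p under 0.05. As the ages of the sexes did not overlap, sex and age cannot be told apart for the other genes.

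DEGs were unevenly distributed over RNA classes. Of 1193 TEC genes tested, 793 were higher in females and 3 lower, with a median log2 difference of 1.09, and of 166 sense intronic RNAs 119 were higher and 0 lower, with a median of 1.26. Sense intronic RNAs are transcripts annotated within introns on the strand of the host gene. MicroRNA genes (50 higher, 4 lower of 120) and small nucleolar RNAs (31 higher, 0 lower of 160), which guide the modification of ribosomal RNA and mostly lie in introns, also leaned to females, with medians of 0.81 and 0.51. Of 75 snRNA genes 14 were higher and 0 lower, and of 576 lincRNAs 89 were higher and 10 lower. The shares higher in females were 66.5% for TEC, 71.7% for sense intronic and 41.7% for microRNA genes, beside 16.0% of all genes. For snoRNAs, snRNAs and lincRNAs they were 19.4%, 18.7% and 15.5%, near that of all genes. The shares lower in these 3 classes were 0, 0 and 1.74%, beside 11.8% of all genes. Of 14614 coding genes 1615 were higher and 2110 lower, with a median of −0.07. No sense intronic, snoRNA or snRNA gene was lower in females at an unadjusted p under 0.05 in limma-voom, edgeR or DESeq2. With each library left out in turn, 614 to 841 TEC genes were higher in females and 2 to 4 lower.

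**Figure D5:**
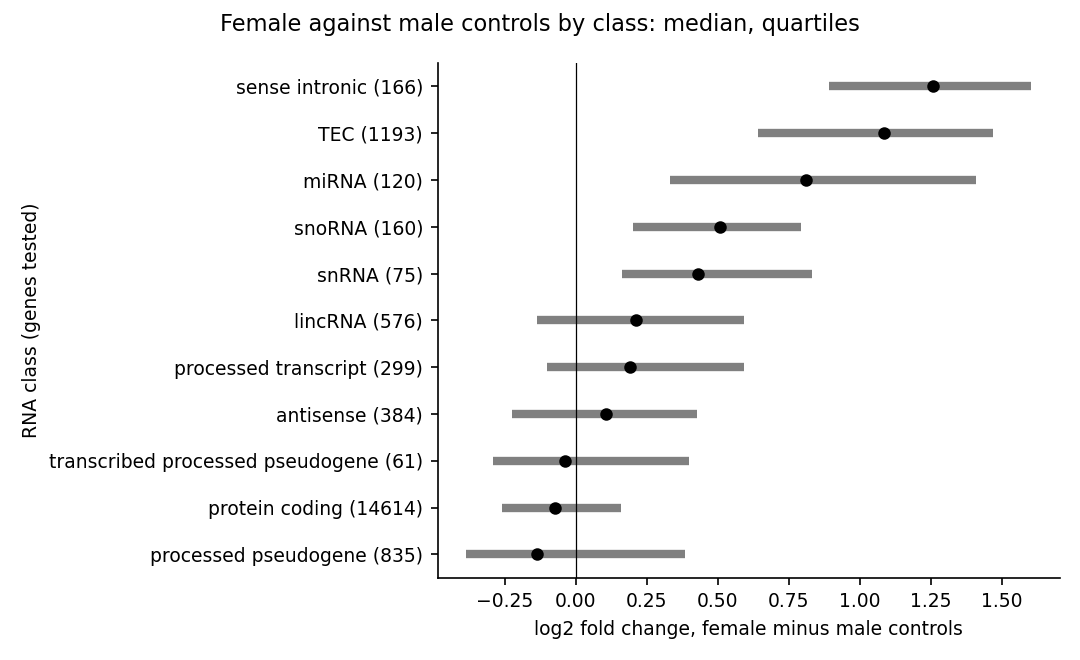
log2 fold change between female and male controls for each RNA class with at least 60 genes tested, the dot marking the median and the grey bar the quartiles over genes. Sense intronic and TEC genes had medians of 1.26 and 1.09, while coding genes had a median of −0.07, and genes of a class are not independent replicates.

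TEC genes were also compared with the genes they lie in. Of the 1193, 923 (77.4%) lay inside the span of a coding gene, and 908 of these had exactly 1 tested host. The TEC gene had the larger log2 difference in 901 of the 908 pairs (99.2%). The median log2 difference was 1.19 for all TEC genes inside coding genes and 0.05 for the hosts, and it was 0.43 for the 270 TEC genes outside. The counts of host genes come from their annotated exons. Gm37633, a TEC gene on chromosome 1, stood at 2.39, 2.73, 3.05, 2.16 and 3.19 CPM in females and 0.525, 0.531, 0.628, 0.519 and 1.05 in males (log2 difference 2.04, limma-voom adjusted p = 0.00158).

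Among autosomal coding genes, the direction changed with gene length. With these genes split into 5 groups of equal size by annotated length, in the group of the shortest genes, the median log2 difference was −0.24, with 2.48% higher and 24.3% lower in females, and in that of the longest it was 0.08, with 24.3% higher and 5.96% lower. The groups between, in order of length, had medians of −0.13, −0.07 and 0.01. The median also ran from −0.18 in the group with the lowest GC content of the transcript to 0.02 in that with the highest, and from −0.21 to 0.05 with the span of the gene. Length, GC content and span were compared over 14090 genes (14067 for GC content), and their part in the calls was not tested.

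Outside X and Y, the smallest p belonged to Xdh, xanthine dehydrogenase, which makes uric acid. It stood at 11.5, 17.2, 14.2, 13.3 and 14.1 CPM in females and 4.88, 5.59, 4.91, 6.01 and 4.66 in males, without overlap (log2 difference 1.41, SE 0.13, limma-voom adjusted p = 0.000355). Srgap1, a GTPase-activating protein, Wnk2, a kinase, the lincRNA AI480526 and Plin4, a lipid droplet protein, followed in order of p, all higher in females, by 0.75, 1.02, 1.12 and 1.69 on the log2 scale. Epha10, an ephrin receptor, the membrane protein Ttyh3, Setd1b, a histone methyltransferase, and the TEC gene Gm37633 came next, higher in females by 0.99, 0.90, 1.19 and 2.04. Shank1, a scaffold protein of excitatory synapses and the 10th in this order, stood at 176, 279, 247, 192 and 381 CPM in females and 61.3, 81.9, 84.3, 60.1 and 94.5 in males (log2 difference 1.71, limma-voom adjusted p = 0.00158), with female 5 highest. None of these autosomal genes was called with age as a covariate.

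Genes that respond to glucocorticoids, the stress hormones of the adrenal gland, were higher in females in 6 of 8 cases (16.0% of all genes) and lower in 0 (11.8% of all genes), with a median log2 difference of 0.70 beside −0.02 over all genes tested. Neither edgeR nor DESeq2 called any of the 8 lower, and none had an unadjusted p under 0.05 in that direction. Plin4 stood at 47.9, 66.9, 67.8, 50.2 and 45.9 CPM in females and 12.04, 12.5, 23.4, 18.7 and 20.98 in males (log2 difference 1.69, limma-voom adjusted p = 0.00125). Hif3a, a hypoxia-response factor, stood at 13.8, 16.01, 25.4, 11.01 and 18.4 CPM in females and 4.91, 4.49, 5.32, 5.68 and 4.44 in males (log2 difference 1.70, limma-voom adjusted p = 0.00235). Fkbp5, a chaperone of the glucocorticoid receptor, stood at 53.1, 78.2, 63.7, 62.9 and 67.7 CPM and 44.9, 40.9, 45.3, 43.3 and 47.6 CPM (log2 difference 0.54, limma-voom adjusted p = 0.00377). In all 3 genes, taken from the 6 called, every female lay above every male. The share of all genes that separated in this way was not counted, and the list was chosen with earlier results of these data known. Zbtb16, Cdkn1a and Sult1a1 were the others that were called, Sult1a1 not without female 2, 4 or 5 or male 2, 4 or 5 (limma-voom adjusted p up to 0.0725), and Sgk1 and Tsc22d3 were not. Of 14 clock genes, Per1, Per2, Per3 and Nr1d1 were higher in females and Nr1d2 lower, which is 5 of 14 beside the 27.8% called over all genes. With each library left out in turn, Per3 stayed called without females 2 and 4 and males 2 and 5, Nr1d1 without females 2 and 4 and males 2 and 3, and Nr1d2 without female 1 and males 3 and 5, and the adjusted p of limma-voom otherwise reached 0.0823, 0.0804 and 0.126. The hour at which tissue was taken was not given in the sources used here.

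Of 11 long or structural non-coding RNAs tested, 6 were higher in females and 1 lower, beside 16.0% and 11.8% of all genes. Malat1 stood at 16644, 18988, 23251, 18095 and 25824 CPM in females and 10362, 12635, 14835, 9755 and 13735 in males (log2 difference 0.74, limma-voom adjusted p = 0.00485). Meg3, an imprinted nuclear RNA, stood at 1628, 1644, 2617, 1225 and 2249 CPM in females and 1113, 742, 1045, 602 and 766 in males (log2 difference 1.12, limma-voom adjusted p = 0.00442). Females 3 and 5, which had the highest lincRNA shares, were the highest for Malat1 as well. Miat, Snhg11, Neat1 and Mirg were the others that were higher, by 1.20, 1.05, 0.89 and 0.55 on the log2 scale, and Rpph1 was lower (log2 difference -0.64), a call kept only without male 2 and without male 3 among the 10 libraries left out in turn (limma-voom adjusted p up to 0.0808).

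Lists of cell types were read in the same way, beside the 27.8% called over all genes. Of 11 microglia genes, the immune cells of the brain, 3 were lower in females (11.8% of all genes) and 0 higher (16.0% of all genes). The 3 of 11 called were near the 27.8% of all genes. The numbers were 2 and 0 with edgeR, 5 and 0 with DESeq2, and 7 and 0 at an unadjusted p under 0.05. The purine receptor P2ry12 stood at 31.998, 23.6, 25.9, 32.7 and 31.4 CPM in females and 48.7, 45.2, 45.5, 44.05 and 43.3 in males (log2 difference -0.65, limma-voom adjusted p = 0.00253), and Aif1 was another. With each library left out in turn, Aif1 stayed called without female 1 and without male 5 alone (limma-voom adjusted p up to 0.119). The summed level of the 11 genes was 266 to 322 CPM in females and 330.4 to 398 CPM in males. Of 11 endothelial genes, Flt1, Abcb1a, Slc2a1 and Esam were higher in females and Itm2a lower, so that 5 of 11 were called. Slc2a1 was not called without female 2, female 5 or male 3 (limma-voom adjusted p up to 0.0565). Itm2a lost its call in 7 of the 10 cases with a library left out (limma-voom adjusted p up to 0.0944). The summed level of the 11 endothelial genes was 272 to 303 CPM in females and 216 to 264 CPM in males. Among the neuronal lists, 0 of 10 dentate genes, 0 of 7 CA1 genes, 0 of 7 CA2 genes, 0 of 6 CA3 genes and 0 of 11 interneuron genes were called by limma-voom, where 1 CA1 and 1 interneuron gene had an unadjusted p under 0.05. The edgeR test called 1 of the CA1 genes, and DESeq2 called 1 CA1 and 1 interneuron gene. Of 10 astrocyte genes 2 were lower and of 12 oligodendrocyte genes 1 was lower.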

How the data were processed

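RNA of the right hippocampus was sequenced in 10 control libraries. Per the labels and the study's methods, the authors prepared libraries from 600 ng of total RNA with the RiboZero Gold kit, sequenced them on an Illumina HiSeq, inspected and trimmed the reads (FastQC, Trimmomatic), mapped them with HISAT2 (mm10) and assigned them to Gencode M11 genes using featureCounts 1.5.0-p3. The strand setting, the handling of multi-mapping reads and the litter of each library are not given in the sources used here. The deposited table holds raw counts per gene, and the deposited gene map holds type, chromosome, length and an RPKM column of the authors' mean over samples, which was not used.

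The members and gene lists were chosen with earlier results of these data known, and the copy families, opposite-strand genes and cerebellar genes after their values were seen. For shares of counts, a two-sided exact permutation test of 5 against 5 libraries was adjusted over 11 shares. Female and male controls were compared with limma-voom (limma 3.58.1, edgeR 4.0.16, R 4.3.3; TMM factors, filterByExpr with a minimum count of 10) on the counts of these 10 libraries, with Benjamini-Hochberg adjusted p under 0.05. Tested on simulated data of this comparison, with 200 of 18710 genes changed 2-fold, it recovered 140 and made 10 false calls. Each simulated gene was drawn on its own, without library differences that many genes share. The number of false calls in the real comparison is therefore not measured by it. DESeq2 1.42.0 and the edgeR quasi-likelihood test were alternatives. TPM was computed from counts and deposited lengths. The SD was taken of log2(CPM + 0.5) over genes with a mean of at least 50 counts. Words of 31 bases and sequences came from the Gencode transcripts and annotation of GRCm38 (mm10). The genes named are the 20 with the most counts, the 15 with the highest TPM, the leading gene of each class, the 15 with the largest and the 5 with the smallest SD in each sex, those with the smallest p, and list members, beside those said to be chosen after their values were seen. A planned test of summed list levels was left out, since lists are described by counts and ranges. P-values measure the spread between animals, some of which may share a litter. Where no count was seen, counting error alone leaves room for 3 counts, which is 0.0778 to 0.133 CPM. Computations used Python 3.11.15, numpy 2.4.6, pandas 2.3.3, scipy 1.17.1 and matplotlib 3.10.9. A few genes and a sequence that these rules would name are not reported here.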

Additional observations from a re-analysis of the deposited data

Results flagged for a closer look

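Within each sex, 109 gene and list levels were checked for a library standing apart from the other 4 by Dixon's test, and 12 did. Of 79 shares and list sums 5 stood out, where chance gives about 1 in 20. The other 7 were among 30 genes taken for their large SD, in which a library standing apart was part of the choice, so that rate does not apply to them. In male 1, summed red blood cell genes stood at 43.2 CPM (2.65 to 6.58 in the other males), Gm20417 at 175 CPM (0.772 to 2.00), Gm37376 at 225 CPM (1.45 to 3.88), Gm2606 at 80.8 CPM (0.142 to 0.496) and mt-Ts1 at 67.6 CPM (0.222 to 0.363). These levels come from 1 library, and part of them lie on genes opposite or beside abundant genes.

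In male 4, the 13 genes of the striatum list stood at 203 summed CPM (165 to 176 in the other males). In females, the hypothalamic peptide genes stood at 2.01 summed CPM in female 2 (0.886 to 1.03 in the others), astrocyte genes at 5953 in female 1 (6668 to 6714) and interneuron genes at 661 in female 5 (883 to 960.2). The last 2 were the lowest of their group, while the peptide genes were the highest.

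Among copied genes, Gm7336 stood at 105 CPM in female 4 (1.82 to 16.0 in the other females), Gm22614, an snRNA gene, at 15.8 CPM in female 1 (0.0277 to 0.487) and Gm6311 at 15.4 CPM in female 3 (0.583 to 1.25).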

How the results depend on the processing

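The number of DEGs between female and male controls stayed within 1.5 times of the 5207 reported with edgeR (5477), DESeq2 (6229), RLE factors (5189), no filter on low counts (4500), the mitochondrial chromosome left out (5153) and sample quality weights (5285). With age in weeks as a covariate it was 7, of which 1 was higher in females and 0 lay outside X and Y, and the cause was not tested. With each library left out in turn it was 3304 to 5123, and 3179 to 4931 outside X and Y, the lowest values being those without female 5. The share of DEGs higher in females was 57.5%, 65.4% with no filter and 58.8% to 68.1% with a library left out.

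No source says that same-numbered females and males share a litter or day, so the main tests did not treat them as pairs. Their deviations correlated at −0.110 to 0.326, over 0.1 for 3 of the 5 numbers. Those 3 females correlated best with the male of their own number, and whether same-numbered libraries share a factor was not tested. A replicate block left 5187 DEGs. In the exact sign-flip test of the 5 pairs, whose smallest p is 0.0625, no share of counts could pass, so the differences (percentage points, females minus males) of the mitochondrial chromosome (−1.79), Mt_rRNA (−1.61), lincRNA (1.20), TEC (0.272), processed pseudogenes (−0.0230), snRNA (0.111) and antisense RNA (0.0292) lost their call.

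With each library left out, those of the mitochondrial chromosome, Mt_rRNA, lincRNA and TEC kept their call. The differences ran from 0.0849 to 0.129 for snRNA, 0.0222 to 0.0343 for antisense RNA and −0.0269 to −0.0189 for processed pseudogenes, which lost their call in 9, 9 and 8 of 10 cases, and from 0.0411 to 0.0641 for processed transcripts and −0.193 to −0.105 for ribozymes, which gained one in 1 case each (without male 1 and without male 3). They ran from −0.304 to 0.633 for coding genes and −0.183 to 0.104 for misc_RNA, changing sign without a call. With the mitochondrial chromosome out of the total, the coding difference was −1.59 and passed the test.

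Of the 100 most variable genes in females, 61 were shared with a minimum of 10 counts, 39 with 200 and 65 with coding genes alone, and choroid plexus genes were 4 of the 100 with 200 counts in place of 7. Summing identical copies, chosen after seeing the data, changed SDs as reported. Of 34 autosomal genes called and checked singly, none was called with age as a covariate, where the log2 difference changed sign for Cdkn1a (−0.38), Rpph1 (0.21) and Nr1d2 (0.038), as it did for the X-linked Itm2a (0.17). Of the 34, 0 to 4 lost their call with each other planned setting and 3 to 7 with a library left out, but none of the 10 with the smallest p did.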
